A study of Mus musculus with 6 samples.

Results

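A set of 8 genes of mature, myelinating oligodendrocytes, Mbp, Mag, Mog, Mobp, Cnp, Cldn11, Opalin and Ermn, were followed in hippocampal RNA that had been purified from microglial ribosomes. They are 8 of the 15388 genes in the deposited table, taken by their gene symbols, and were chosen because their reads were lower in the positive fraction than in the input. That comparison is therefore given for these 8 genes as a description, with no test. The mice carried a tamoxifen-inducible Cre recombinase from the Cx3cr1 gene (Cx3cr1-Cre/Ert2+), which is active in microglia and also in other macrophages, and the NuTRAP reporter (NuTRAP+), which after recombination puts an EGFP tag on ribosomes. All animals of both fractions had this genotype and had received tamoxifen at about 3 months of age. Hippocampi of 3 mice, numbered 201, 207 and 208, were homogenized, a portion of the cleared supernatant was kept as input, and tagged ribosomes were pulled down with an anti-GFP antibody from the rest to give the positive fraction (translating ribosome affinity purification, TRAP). Each mouse gave 1 input and 1 positive library, 6 in all. The unbound fraction was not analysed here, and mice without Cre were not analysed here.

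Oligodendrocytes wrap axons in myelin, a stack of membrane layers that insulates the axon and feeds it. Myelin proteins are made in bulk: some zip the inner faces of the membrane together, some seal the layers at their edges, and others hold the innermost layer to the axon. Microglia are a separate, macrophage-like lineage and are not known to build myelin, but they engulf it. Myelin messages lie partly in the oligodendrocyte processes, where Mbp in particular is carried along microtubules and translated beside the growing sheath.

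The 3 input libraries held 14879734 to 16488460 reads and the 3 positive libraries 15790210 to 17757918. Values are given as scaled reads, the raw reads of a library divided by its median-of-ratios size factor. Reads had no molecular identifiers. Errors are either the SD over the 3 animals or, beside a log2 fold change, the SE from the model. All 10 microglial markers were higher in the positive fraction, with a median log2 fold change of 4.63 and a range of 4.16 to 4.82 over the genes. All 10 endothelial markers were also higher, with a median of 1.88. Of 10 astrocyte markers 5 were lower and 1 higher (median -0.35), and of 10 neuronal markers 1 was lower and 3 higher (median 0.14), by the edgeR quasi-likelihood test at an adjusted p-value under 0.05.

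All 8 genes had fewer reads in the positive fraction, between 11.6% of the input mean for Cldn11 and 32.8% for Mobp. The median log2 fold change was -2.27, against -0.01 over all 15343 genes tested. In each of the 8 genes every positive library lay below every input library, a pattern found in 27.6% of all genes tested. All 8 were lower in each of the 3 animals, as were 35.6% of all genes. Because the genes were chosen on this contrast, nothing is read from these counts. Both fractions of a mouse came from one homogenate, but they do not sample its cells alike. Input holds RNA of the whole homogenate, and the positive fraction holds RNA pulled down with tagged ribosomes. Where levels of whole tissue are compared between animals, fewer cells of a type and less RNA per cell cannot be told apart.

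**Figure D1:**
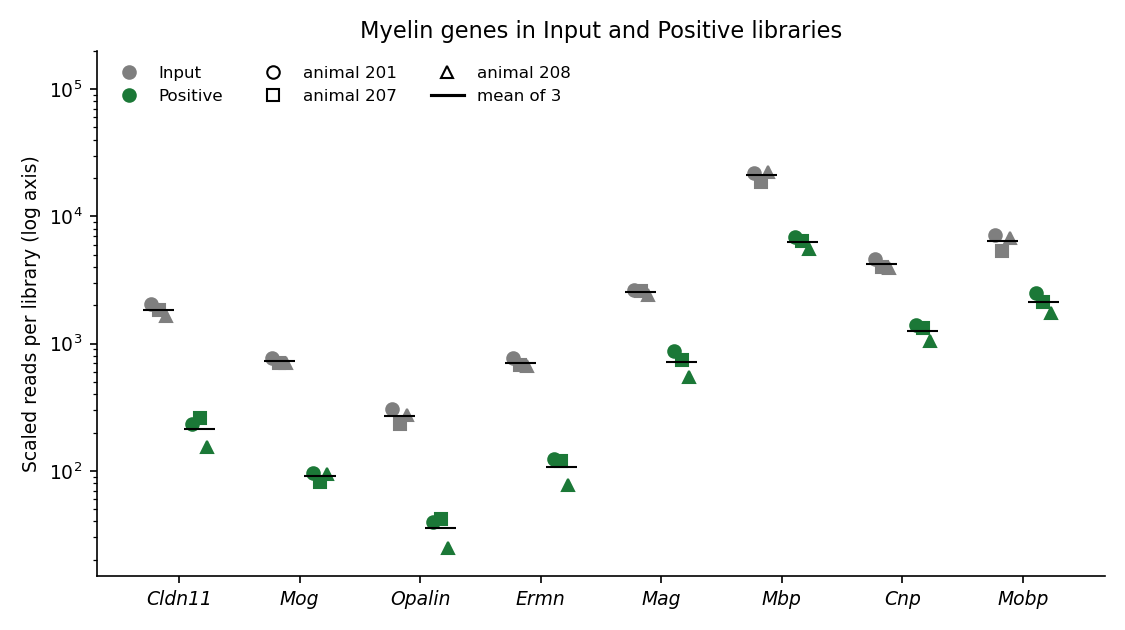
Scaled reads of the 8 myelin genes in each library (log axis), in input (grey) and positive (green), with a symbol for each animal and a bar at the mean of 3. In every gene the 3 positive libraries lie below the 3 input libraries, from 11.6% of the input mean for Cldn11 to 32.8% for Mobp.

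Among the membrane proteins, Cldn11 codes for the claudin that forms the tight junctions between myelin layers (mm10 chr3:31149920-31164324, plus strand). It had 2057, 1820 and 1654 scaled reads in the input of animals 201, 207 and 208 and 232, 259 and 154 in the positive fraction. The means were 1843 ± 202 and 215 ± 54.6 (SD, n = 3), and the log2 fold change of -3.10 was the lowest of the 8. Of 15343 genes tested, 7 were lower still.

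Mog codes for a myelin glycoprotein of the immunoglobulin family on the outermost layer of the sheath (chr17:37010743-37023398, minus strand). Its input libraries held 771, 701 and 704 scaled reads and its positive libraries 96.8, 82.0 and 94.5, again in the order 201, 207 and 208. The means were 725 ± 39.7 and 91.1 ± 7.95 (SD, n = 3), and the log2 fold change was -3.00. Mog varied least of the 8 between animals, at 12.5%, 11.7% and 13.4% of the input of the same animal, and it was the only one of the 8 whose lowest share was not in animal 208.

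Opalin codes for a small transmembrane glycoprotein restricted to oligodendrocytes (chr19:41062474-41077113, minus strand). It was the least abundant of the 8, with 304, 234 and 274 scaled reads in input and 39.7, 41.8 and 24.8 in the positive fraction (271 ± 35 against 35.4 ± 9.24, SD, n = 3). Its share of input ran from 9.06% in animal 208 to 17.8% in animal 207, the widest relative spread of the 8, around a log2 fold change of -2.92.

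Mag codes for an adhesion protein of the immunoglobulin family on the innermost layer, facing the axon (chr7:30899176-30914873, minus strand). It had 2654, 2611 and 2428 scaled reads in input and 880, 740 and 546 in the positive fraction. The means were 2564 ± 120 and 722 ± 168 (SD, n = 3), and the log2 fold change was -1.83. The level of Mag in input was the steadiest of the 8, with a coefficient of variation of 4.66%.

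Of the genes for proteins on the inner side of the membrane, Mbp codes for myelin basic protein, which draws the membrane faces together into compact myelin. It was the most abundant of the 8, with 21784, 18589 and 22412 scaled reads in input and 6839, 6418 and 5508 in the positive fraction. The means were 20928 ± 2050 and 6255 ± 680 (SD, n = 3), and the log2 fold change was -1.74. The Mbp gene also gives the Golli transcripts, which are made outside oligodendrocytes too, and reads summed per gene do not separate them.

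Mobp codes for a second small basic protein of compact myelin (chr9:120149707-120181484, plus strand). It had 7189, 5332 and 6801 scaled reads in input and 2495, 2104 and 1733 in the positive fraction (6441 ± 980 against 2111 ± 381, SD, n = 3). Its log2 fold change of -1.61 was the highest of the 8. Of the genes tested, 197, or 1.28%, were lower than Mobp, the rest of the 8 among them. This rank follows in part from the choice of the genes.

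Cnp codes for a cyclic nucleotide phosphodiesterase that keeps the cytoplasmic channels of myelin open (chr11:100574904-100591729, plus strand). Its input libraries held 4634, 4004 and 3944 scaled reads and its positive libraries 1388, 1322 and 1053. The means were 4194 ± 382 and 1255 ± 178 (SD, n = 3), and the log2 fold change was -1.74, equal to that of Mbp at 2 decimals. Cnp overlaps Dnajc7 on the opposite strand. Dnajc7 had 3459 scaled reads in input and 3780 in the positive fraction, and the libraries and the alignment kept strand.

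Ermn codes for ermin, an actin-binding protein of the oligodendrocyte cytoskeleton (chr2:58045113-58052864, minus strand). It had 773, 679 and 663 scaled reads in input and 124, 119 and 77.6 in the positive fraction. The means were 705 ± 59.8 and 107 ± 25.4 (SD, n = 3), and the log2 fold change was -2.72.

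The 8 genes did not leave equal shares in the positive fraction. Cldn11, Mog, Opalin and Ermn kept 9.06% to 17.8% of the input of the same animal, and Mag, Mbp, Cnp and Mobp kept 22.5% to 39.5%. Within each animal the 4 lower genes lay apart from the 4 higher ones, with a gap of 0.89, 0.64 and 0.73 on the log2 scale in animals 201, 207 and 208. The difference of the medians was 1.31, 1.09 and 1.25 (1.22 ± 0.11, SD, n = 3). The 4 lower genes were also the 4 past a 5-fold decrease, which 0.3% of all genes tested showed. The split was seen in the values and is a description. It follows the roles above only in part. The lower genes hold 3 for membrane proteins and 1, Ermn, for a cytoskeletal protein. Mag, a membrane protein, stands with the genes for inner-face proteins.

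**Figure D2:**
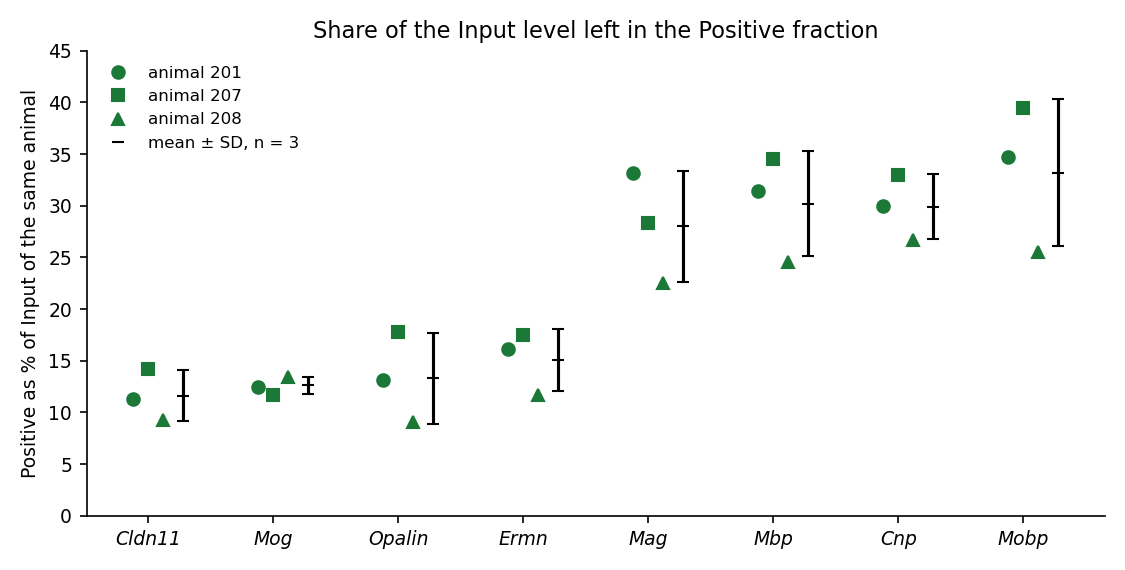
Scaled reads in the positive fraction as a percentage of the input of the same animal, for each of the 8 myelin genes, with a symbol for each animal and the mean ± SD of the 3 animals beside them. Cldn11, Mog, Opalin and Ermn lie between 9.06% and 17.8%, and Mag, Mbp, Cnp and Mobp between 22.5% and 39.5%.

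The spread among genes was larger than that among animals. The SD of the log2 ratio of positive to input over the 8 genes was 0.65, and the median SD of a gene over the 3 animals was 0.29. The order of the genes was alike in the 3 animals, with Spearman coefficients of 0.88 between animals 201 and 207 and 0.76 for each of the other pairs (8 genes, all from the same libraries). Apart from Ermn and Mag, on either side of the gap, neighbours in this order did not differ beyond their spread. Cldn11, Mog, Opalin and Ermn had log2 ratios of -3.12 ± 0.31, -2.98 ± 0.10, -2.93 ± 0.48 and -2.74 ± 0.30, and Mag, Cnp, Mbp and Mobp had -1.85 ± 0.28, -1.75 ± 0.15, -1.74 ± 0.25 and -1.61 ± 0.32 (SD, n = 3 animals).

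Animal 208 had the lowest share of input for 7 of the 8 genes. The median log2 ratio of the 8 genes was -2.18, -2.14 and -2.52 in animals 201, 207 and 208, and their summed reads in the positive fraction came to 30.1%, 32.6% and 23.6% of input. As a share of all reads, the 8 genes made up 0.259%, 0.220% and 0.250% of the input libraries and 0.0747%, 0.0674% and 0.0560% of the positive libraries. The positive library of animal 208 therefore held the fewest reads of these genes, while its input was within the range of the other inputs. The microglial, endothelial and astrocyte markers also had their lowest median there, and the neuronal markers their highest. In animals 201, 207 and 208 the median log2 ratio was 4.59, 4.88 and 4.33 for the microglial, 2.15, 2.15 and 1.12 for the endothelial, -0.14, -0.22 and -0.76 for the astrocyte and 0.04, 0.07 and 0.29 for the neuronal markers. Their part in the result was not tested. Without the positive library of animal 208 the median log2 fold change of the 8 genes was -2.10, and the same number, 4, were lower by over 5-fold.

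The replicates were looser in the positive fraction than in input. The median coefficient of variation of the 8 genes was 9.5% in input and 20.7% in the positive fraction, against 7% and 9% over genes that averaged 100 or more scaled reads. It ran from 4.66% to 15.2% in input and from 8.72% to 26.1% in the positive fraction.

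Levels of different genes were compared per kilobase of the union of annotated exons. In input, Mbp had 2471 ± 242 scaled reads per kb and stood at place 169 of the genes by level, Cnp had 1153 ± 105, Cldn11 986 ± 108, Mobp 940 ± 143, Mag 630 ± 29.4, Mog 426 ± 23.3, Ermn 194 ± 16.5 and Opalin 91.9 ± 11.9 (SD, n = 3). Cldn11 and Mobp did not differ beyond their spread. In the positive fraction the level per kb was 739 ± 80.3 for Mbp, 345 ± 48.8 for Cnp, 308 ± 55.7 for Mobp, 177 ± 41.3 for Mag, 115 ± 29.2 for Cldn11, 53.5 ± 4.66 for Mog, 29.4 ± 6.99 for Ermn and 12.0 ± 3.14 for Opalin. Mbp was still at place 1058 by level there, and Cldn11, level with Mobp and above Mag in input, was below both. These orders depend on the length used. The union of exons is 6849 bases for Mobp, 4072 for Mag and 8469 for Mbp, but their principal transcripts have 1536, 2434 and 638. Cldn11 has 1870 by either length.

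The union of annotated exons, which played no part in the choice, ran with the split, though Ermn and Cnp were nearly equal. The union of exons was 1704 bases for Mog, 1870 for Cldn11, 2946 for Opalin and 3635 for Ermn, and 3639 for Cnp, 4072 for Mag, 6849 for Mobp and 8469 for Mbp. The length of the principal annotated transcript did not run with the split. It was 1704 bases for Mog, 1839 for Opalin, 1870 for Cldn11 and 3635 for Ermn. For the higher genes it was 638 for Mbp, 1536 for Mobp, 2357 for Cnp and 2434 for Mag. The Mbp transcript has 0 annotated untranslated bases after its stop codon, so its length may fall short of the full message. Across the 8 genes the Spearman coefficient between the union of exons and log2 fold change was 0.86. It was 0.29 over 178 other oligodendrocyte genes of the study's cell-sorting list, described below, and 0.07 over all 15325 genes with a length. These are coefficients across genes that share their libraries, and the relation was noticed in the values. The number of coding transcripts in the annotation was 1 for Cldn11, Opalin, Ermn and Cnp, 2 for Mog, 5 for Mobp, 6 for Mag and 14 for Mbp.

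Promoter sequence is shown for Cldn11 and Mog, the lowest of the 8, and for Mobp and Cnp, toward the upper end. It lets their upstream bases be compared. Both fractions came from the same homogenate, and a part of the promoters in the difference was not tested. RefSeq promoters (GRCm38.p6) were matched for 7 of the 8 genes, all but Mbp, with 3 start sites for Mag, and the bases from -250 to -51 relative to the start were searched on both strands. The motifs were ACAAAG and ACAATG, cores bound by SOX factors such as SOX10, CTGGCAC, a core of the MYRF motif, TATAAA and CAGCTG. No pair of these motifs shares a sequence, although matches may overlap. SOX10 and MYRF drive myelin genes in oligodendrocytes. Capitals mark matches, and CTTTGT is ACAAAG read from the other strand.
Mobp (chr9:120149492-120149691, plus strand): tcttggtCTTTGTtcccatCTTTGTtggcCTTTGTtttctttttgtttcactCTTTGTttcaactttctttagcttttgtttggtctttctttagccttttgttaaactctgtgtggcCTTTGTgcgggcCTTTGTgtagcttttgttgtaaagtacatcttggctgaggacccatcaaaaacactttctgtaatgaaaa
Cnp (chr11:100574689-100574888, plus strand): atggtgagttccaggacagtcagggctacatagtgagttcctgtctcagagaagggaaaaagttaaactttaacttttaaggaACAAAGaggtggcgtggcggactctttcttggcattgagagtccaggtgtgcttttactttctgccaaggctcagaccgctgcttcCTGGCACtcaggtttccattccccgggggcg
Cldn11 (chr3:31149670-31149869, plus strand): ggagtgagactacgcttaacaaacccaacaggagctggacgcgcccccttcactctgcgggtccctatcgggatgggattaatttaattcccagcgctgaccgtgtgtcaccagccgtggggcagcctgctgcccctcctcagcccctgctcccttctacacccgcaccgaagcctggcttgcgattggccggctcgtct
Mog (chr17:37023449-37023648, minus strand): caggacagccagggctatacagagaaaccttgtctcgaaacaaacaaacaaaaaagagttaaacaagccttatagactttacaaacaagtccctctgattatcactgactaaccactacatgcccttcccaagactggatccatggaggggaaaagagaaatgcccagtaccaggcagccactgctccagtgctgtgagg
Mobp had 6 matches to ACAAAG, all on the other strand, and was the 1 promoter of 32851 with 6 or more. Its bases are rich in T, with 37.5% G or C against a median of 51.5% over all promoters. Cnp had 1 match to ACAAAG and 1 to CTGGCAC, and Cldn11 and Mog had none to any of the 5 motifs in these bases. Over the 7 genes, ACAAAG was in 4 (Cnp, Mag, Mobp and Opalin), ACAATG in 1 (Ermn) and CTGGCAC in 2 (Cnp and Mag). A gene was counted if any of its start sites had a match, and Mag had 3. The shares that follow are of single promoters, so the units are not alike. Of all 32851 promoters, 13.6% held ACAAAG, 8.94% ACAATG, 3.35% CTGGCAC, 9.14% TATAAA and 10.3% CAGCTG, and neither TATAAA nor CAGCTG was in any of the 7. A match is a description of the letters and not of a bound site.

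The next question was whether other genes of myelin and of oligodendrocytes behaved alike. Of 70 further genes tested, 55 were lower, 5 higher and 10 not called, or 78.6% lower, against 22% of all genes tested called lower and 23.9% higher (edgeR at an adjusted p-value below 0.05, with 3 libraries per fraction), in total 46%. Under total count scaling 27.8% of all genes were called lower and 19.9% higher. The median log2 fold change of the 70 genes was -1.34, above the -2.27 of the 8 genes and below the -0.01 of all genes. The 8 genes were chosen for being lower in this contrast, so their lower median follows in part from the choice. The lists of the 70 genes, and of the precursor genes below, were chosen with earlier results of these data known. Their shares are therefore a description. The median log2 ratio of the 70 genes was -1.13, -1.21 and -1.46 in animals 201, 207 and 208.

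Other membrane and junction proteins of myelin came closest to the 8 genes, with 12 of 14 lower, 2 higher and a median of -2.05. Tmem125, a transmembrane protein gene, fell from 87.5 ± 7.56 to 12.7 ± 2.68 scaled reads (SD, n = 3; log2 fold change -2.78 ± 0.27 SE, edgeR adjusted p-value 2.69e-06). The other 2 genes went the other way. Cd9, a tetraspanin also made by many other cells, rose from 576 ± 29.8 to 1989 ± 437 (1.79 ± 0.14, adjusted p-value 3.38e-07), and the ion channel gene Tmem63a had a log2 fold change of 0.47 ± 0.13 (adjusted p-value 0.00888).

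Lipid genes fell in 10 of 13, with 1 higher and a median of -1.35. Ugt8a, the enzyme that makes galactosylceramide, had a log2 fold change of -2.72 (edgeR adjusted p-value 6.6e-08), and Ppp1r14a, a phosphatase inhibitor listed with these genes, one of -2.67 (9.66e-08). Gltp, a glycolipid transfer protein, rose (1.03, adjusted p-value 0.000615), and Elovl1, a fatty acid elongase, was not called (0.39, adjusted p-value 0.102).

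Transcription factors of the lineage fell in 8 of 10, with a median of -1.55. Nkx6-2 had a log2 fold change of -2.74 (edgeR adjusted p-value 6.63e-07) and Olig1 one of -2.05 (3.83e-08). The 2 highest, Tcf7l2 (-0.05, adjusted p-value 0.851) and St18 (-0.30, adjusted p-value 0.0606, or 0.0427 with animal as a block), were not called. Both are also made by other cells of the brain, which was not tested as a cause here or for other genes. Secreted and other proteins fell in 8 of 10, with a median of -1.36, among them the lipid carrier Apod (-1.73, adjusted p-value 9.32e-06) and the protease Adamts4 (-1.71, adjusted p-value 7.56e-05). In that list Trf, transferrin, rose from 927 ± 88.2 to 2505 ± 610 scaled reads (SD, n = 3; 1.43, adjusted p-value 5.75e-06), and the adenosine receptor gene Adora1 was not called (-0.11, adjusted p-value 0.36).

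Cytoskeletal and cytosolic proteins fell in 12 of 16, with a median of -0.85. Bcas1 (-1.92, edgeR adjusted p-value 1.59e-07) and the small heat shock protein Cryab (-1.85, adjusted p-value 4.44e-08) were lowest. Evi2a rose (1.71, adjusted p-value 1.76e-07), and Sirt2, a deacetylase found in myelin, was not called (0.10, adjusted p-value 0.45). Proteins of axon contact were closest to no change, with 5 of 7 lower and a median of -0.46. Hapln2, a link protein of the node of Ranvier, had -1.12 (adjusted p-value 0.000103) and Cntn2, a contactin also made by neurons, -1.02 (6.6e-06). Omg (-0.24, adjusted p-value 0.0501, or 0.0455 with animal as a block) and Rtn4 (-0.07, adjusted p-value 0.49), which neurons also make, were not called.

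Oligodendrocyte precursor genes were lower in 12 of 15, with none higher and a median of -1.11 (range -2.01 to -0.06). Gpr17, a receptor of committed precursors, fell from 570 ± 51.0 to 141 ± 16.7 scaled reads (SD, n = 3; -2.01 ± 0.13 SE, edgeR adjusted p-value 7.15e-08), and C1ql1 had a log2 fold change of -1.85 (adjusted p-value 4.14e-05). The kinase gene Fyn (-0.13, adjusted p-value 0.182) and the matrix gene Tnr (-0.06, adjusted p-value 0.683) were not called. The highest of the 8 myelin genes, Mobp at -1.61, lay below the precursor median. Since the 8 genes were chosen for being lower in this contrast, nothing is read from that order. The median log2 ratio of the precursor genes per animal was -0.84, -1.11 and -1.44, lowest in animal 208 as for the 8 genes.

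**Figure D3:**
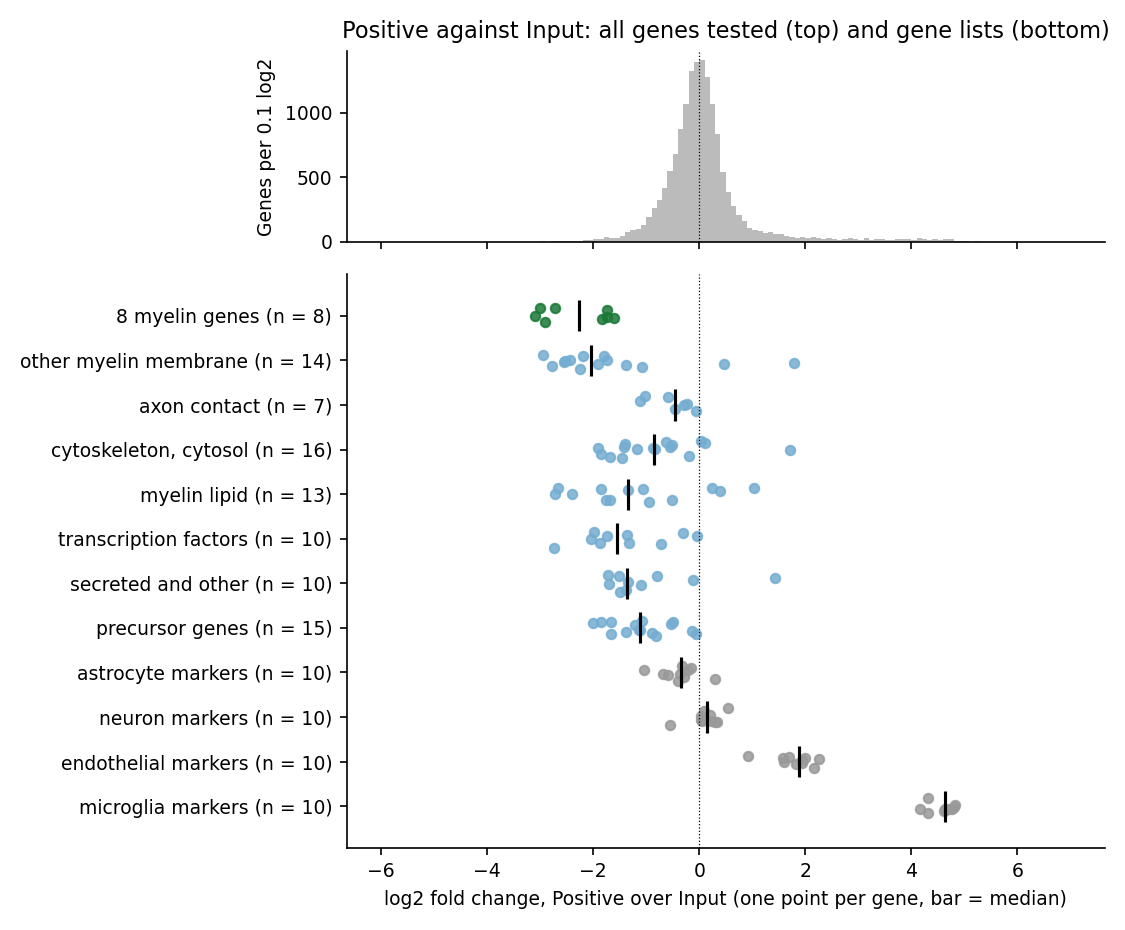
Log2 fold change of the positive fraction over input, as a histogram of all 15343 genes tested (top) and with 1 point per gene and a bar at the median for each gene list (bottom). The 8 myelin genes lie between -3.10 and -1.61, the medians of the other oligodendrocyte lists between -2.05 and -0.46, and the microglial markers between 4.16 and 4.82.

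The study's list of oligodendrocyte genes from cell sorting gave a wider view. It held all 8 genes, and of its other 178 genes tested 129 were lower, 10 higher and 39 not called (edgeR, adjusted p-value under 0.05), with a median log2 fold change of -0.73. Of these 178 genes, 32 were lower than Mobp and 10 were lower by over 5-fold. Among the 10 were Tmem125, Nkx6-2, Ppp1r14a, Tnfaip6 (-2.69), Tnni1 (-2.57), Tmem88b (-2.56), Gjb1 (-2.53) and Fa2h (-2.41). Without the positive library of animal 208, Tnni1 (-2.24) and Fa2h (-2.30) fell short of 5-fold, and without that of animal 201 Tnni1 was at -3.23. Mal, at 21% of input, and Pllp, at 21.9%, lay in the gap between the lower and the higher genes of the 8. The Spearman coefficient between log2 fold change and input level was 0.26 over the 186 genes of the list, a description across genes.

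**Figure D4:**
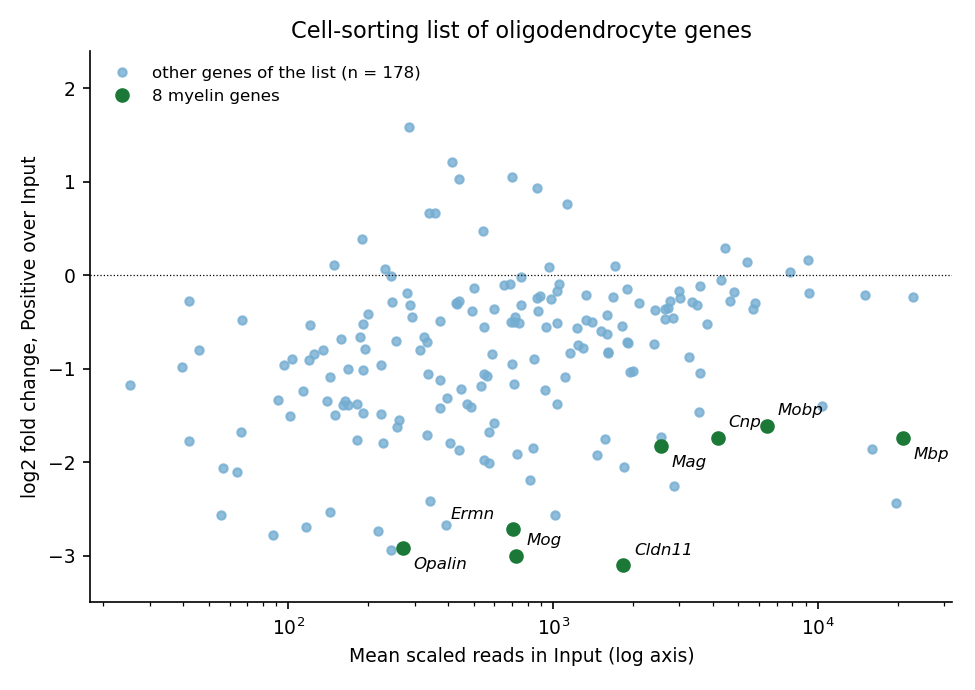
Log2 fold change of the positive fraction over input against mean scaled reads in input (log axis) for the 186 tested genes of the cell-sorting list, with the 8 myelin genes in green. The 8 lie toward the lower edge, from Opalin with 271 to Mbp with 20928 scaled reads in input.

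Last, genes were ranked by how closely their profile over the 6 libraries followed the mean profile of the 8 genes, as the root mean square (RMS) difference of gene-centred log2 values among 12107 other genes averaging 100 or more scaled reads. Among the 10 closest were the myelin lipid-raft gene Mal (RMS difference 0.0983), Fa2h, which hydroxylates myelin fatty acids (0.116), Ttr (0.129), the tetraspan membrane gene Pllp (0.131), Tmem88b (0.144), Olig1 (0.151), Gm28438 (0.157), Clic6 (0.162) and Folr1 (0.173). Of these 10, 6 were on the cell-sorting list, which held 157 of the candidates. The 8 genes were chosen for being lower in the positive fraction, so genes close to their mean profile share that drop. Nothing is read from this count. Ttr, Clic6 and Folr1 are known for high levels in the choroid plexus, the epithelium beside the hippocampus that makes cerebrospinal fluid. Ttr had 30343 ± 4705 scaled reads in input and 6543 ± 680 in the positive fraction (SD, n = 3), or 21.6% of input, and Clic6 and Folr1 were at 23.7% and 23.2%. Gm28438 is a pseudogene whose reads may belong to near-identical copies. The RMS difference of the 8 genes themselves from their mean was 0.212 to 0.411.

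**Figure D5:**
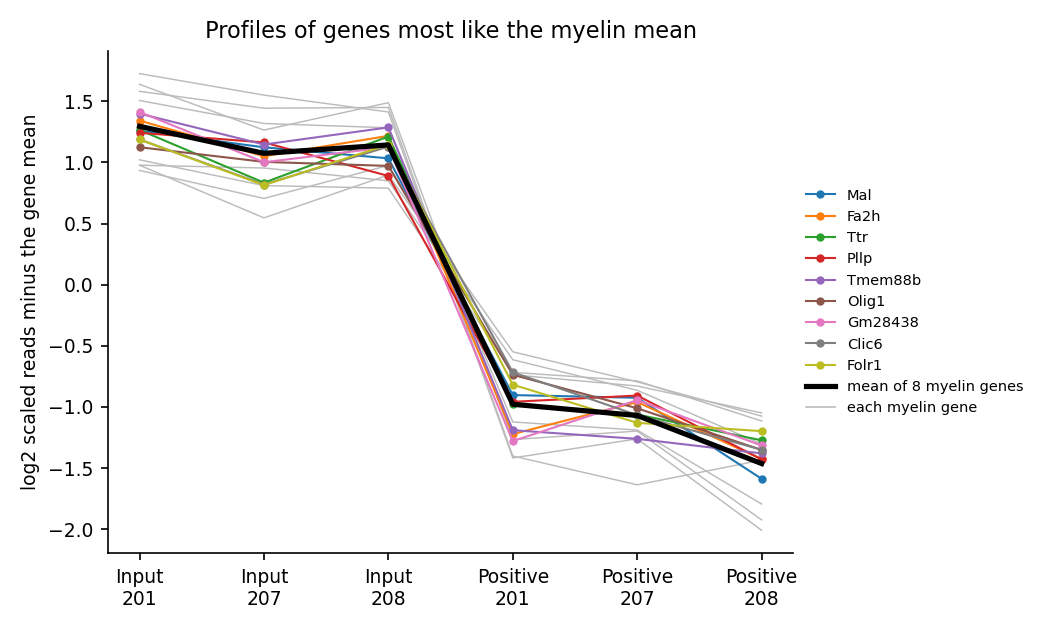
Log2 scaled reads minus the mean of the gene in each of the 6 libraries, for the most alike genes named in the text (colours), each of the 8 myelin genes (grey) and the mean of the 8 (black). Their profiles lie within an RMS difference of 0.173 of the mean of the 8, and all are high in the 3 input and low in the 3 positive libraries.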

How the data were processed

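The authors made strand-specific poly(A) libraries, aligned paired reads to mm10 in Strand NGS, and deposited raw columns and normalized columns, the latter made with DESeq per the labels. The raw columns, as deposited by the authors, hold expected counts (estimated per gene and not always whole). Between 17.3% and 23.1% of values per library were whole, and 64.7% to 69.3% of whole values under 60 were even, so both mates of a pair may have been counted, which was not settled. Normalized values were deposited as log2. The authors' filter required 20 raw reads or more throughout input or throughout the positive fraction.

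Counts were rounded and tested in R 4.3.3 with edgeR 4.0.16 (quasi-likelihood, median-of-ratios scaling, unpaired), keeping 15343 of 15388 genes over 20 scaled reads throughout 1 or both fractions, with Benjamini-Hochberg adjustment. On simulated data with 200 of 15026 genes changed, the method recovered 100% of them, and 6.1% of its calls were false. In the real data 7051 genes were called, so the simulated setting was unlike them in this. Recovery of small log2 fold changes, such as those of Omg and St18, was not tested separately. Per-animal log2 ratios used a pseudocount of 1. Alternatives included DESeq2 1.42.0 and limma 3.58.1.

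Fractions were grouped by the fraction label. The labels give the animal of each library, so the libraries are paired. Deviations from the fraction means correlated within animals at 0.193, 0.058 and 0.12 (animals 201, 207 and 208). The members and lists were chosen with earlier results of these data known. Named genes are the 8 genes, the 2 lowest and 2 highest of each hand-written oligodendrocyte list and any called higher, genes of the cell-sorting list lower by over 5-fold, and the 10 most alike genes averaging 100 or more scaled reads. Some genes that this rule took are not reported here. Of the 73 further myelin genes listed, Ninj2, Klk6 and Plaat3 had no tested row, and Pla2g16, another name for Plaat3, did. Exon lengths came from GENCODE vM21.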

Additional observations from a re-analysis of the deposited data

How the results depend on the processing

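The 8 genes were lower under every alternative run, and 4 of them were lower by over 5-fold in each. Their median log2 fold change was -2.35 under total count scaling and -2.27 to -2.32 under the other scalings, filters and tools, and -2.42 to -2.10 when 1 library was left out. Single members stayed between -3.26 (Cldn11) and -1.49 (Mobp), and only the mean log2 ratio of Mog moved beyond its spread, to -2.86 with a pseudocount of 10. With animal as a block, the median was -2.29, 7570 genes differed in place of 7051, 57 of the other myelin genes were lower, and Omg (edgeR adjusted p-value 0.0455) and St18 (0.0427) were called. No call named in the report was lost under the block. Leaving out 1 library gave 5539 to 7264 differing genes, 51 to 57 other myelin genes lower and 5 to 7 higher, 12 to 13 precursor genes lower, and 122 to 141 genes of the cell-sorting list lower, where total count scaling gave 153. Without the positive library of animal 208, Omg (-0.30), St18 (-0.35), Adora1 (-0.21), Fyn (-0.19), Elovl1 (0.60) and Cers2 were called. Omg and St18 were also called under total count scaling (edgeR adjusted p-values 0.0142 and 0.0205), the authors' size factors (0.0428 and 0.0494) and a filter at 100 scaled reads (0.0298 and 0.0421), and Fyn under total count scaling (0.038). The borderline call of Carns1 was lost without 5 of the 6 libraries. With 1 library left out, Tcf7l2 ranged from -0.23 to 0.10, turning without the input library of animal 201, and Tnr from -0.19 to 0.06, turning without the positive library of animal 201, and neither was called. The cause was not tested. With 3 animals, most neighbours in the order of the 8 genes could not be separated, and genes under the deposited read limit were not analysed here.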
